A study of Xenopus laevis with 9 samples.

Results

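The RNA of the first, low-pressure filtrate of *X. laevis* egg extract (T1) was compared with the RNA of the same kind of extract before filtration (input). Members were all genes in the table of raw counts that passed a filter on low counts, 20148 of 44478 genes, in 3 input and 3 T1 libraries out of 9 in the series. Egg extract is nearly undiluted cytoplasm from crushed frog eggs, and both groups were such extract. The labels name no drug, mutation or transgene. By the study's methods, however, its extracts were given cytochalasin D, nocodazole and protease inhibitors. The eggs were arrested in metaphase and came from wildtype females injected with hormones. The input was unfiltered and stands for time 0. The T1 samples were what had passed a polyethersulfone membrane with pores of 30 nm at low centrifugal force, and the remaining 3 libraries were late filtrates at higher force (T2), which entered the filter and the estimate of spread and gave a second level to group genes by. The libraries of a condition were biological replicates according to the study's methods, and total RNA was depleted of ribosomal RNA before sequencing.

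Cytoplasmic RNA does not travel as a bare chain. It is coated in RNA-binding proteins, and messenger RNAs can carry ribosomes, sit on membranes or gather in granules and other condensates, so that the size of the particle passing a pore is not that of the RNA alone. An egg holds a large maternal stock of such messenger RNAs and makes almost no new RNA until the embryo begins transcription. The question of the comparison was which RNAs were short in the earliest filtrate and which passed readily.

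All values are CPM, a library's reads on a gene per 1000000 of its reads on all genes, scaled by TMM factors, which align libraries on the bulk of their genes. The factors were 1.04, 1.05 and 1.05 in input replicate 1, 2 and 3 and 1.01, 0.943 and 0.795 in T1 replicate 1, 2 and 3. A factor under 1 raises all CPM of its library, most of all in T1 replicate 3. The values compare an RNA with the other RNAs of its library and are not amounts. The RNA mass that passed the membrane was not used here. A higher CPM at T1 thus does not say that a volume of filtrate held more of an RNA than the same volume of extract. CPM is not divided by RNA length either, so it serves to compare a gene with itself. Between 65503682 and 90000652 reads lay on genes in the input libraries and between 23509338 and 37265313 in those of T1, where T1 replicate 3 was the shallowest. The biological coefficient of variation, the spread between replicates after counting error, was 0.577 in the input and 1.49 at T1, so T1 libraries differed from each other far more than input libraries did.

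At an adjusted p under 0.05 in edgeR's quasi-likelihood test with Benjamini-Hochberg adjustment, 1297 genes (6.44% of those tested) were more abundant at T1 than in the input and 1023 (5.08%) were less abundant. The number of calls was sensitive to leaving out 1 library. The total of 2320 (11.5%) was 420, 417 and 590 without input replicate 1, 2 and 3. The loss was thus large whichever input library was left out, and no single one carried the calls. Leaving out a T1 library raised the total, to 4083, 2687 and 2862 for T1 replicate 1, 2 and 3. Leaving out a T2 library lowered the total, to 1389, 1521 and 2076 for T2 replicate 1, 2 and 3. The filter, which also counted the T2 libraries, had let in genes by several routes. Its minimum of 0.153 CPM was reached by 10986 genes in all 6 input and T1 libraries. In the 3 input libraries but not in all of T1 it was reached by 7361, and by 72 the other way round. The other 1729 reached it throughout neither group. Of the genes called lower, 541 belonged to the 7361 and 481 to the 10986. Of those called higher, 1295 belonged to the 10986. A gene of the 7361 could hardly be called higher, so the balance of calls is given as a description.

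The sizes of the changes were spread widely. By the ratio of mean CPM, 8030 genes (39.9%) lay within 2-fold of the input, 2106 were 2- to 4-fold lower, 990 were 4- to 16-fold lower and 3484 (17.3%) were at least 16-fold lower. On the other side 2950 were 2- to 4-fold higher, 2180 were 4- to 16-fold higher and 408 (2.03%) were at least 16-fold higher. Together 22.2% of the genes were at least 4-fold lower and 12.8% at least 4-fold higher. Large falls were thus more frequent than large rises under this filter, and by these means most of their genes were rare. With a filter at a mean of at least 1 CPM the shares were closer, 15.6% lower and 14.1% higher. The median input level was 1.42 CPM among genes at least 16-fold lower, 36.6 CPM among those within 2-fold and 0.545 CPM among those at least 16-fold higher. Among the genes with at least 10 CPM in the input, 263 (2.23%) were at least 16-fold lower and 10 were at least 16-fold higher, while 6526 (55.2%) lay within 2-fold. These shares rest on the mean of the T1 libraries. In T1 replicate 1, 2 and 3 alone, 5.79%, 11.1% and 28.8% of the same genes were at least 16-fold lower, and 59.0%, 48.5% and 31.9% lay within 2-fold. Calls followed another order than size: 721 of the 2180 genes that were 4- to 16-fold higher were called, but 565 of the 3484 that were at least 16-fold lower.

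**Figure D1:**
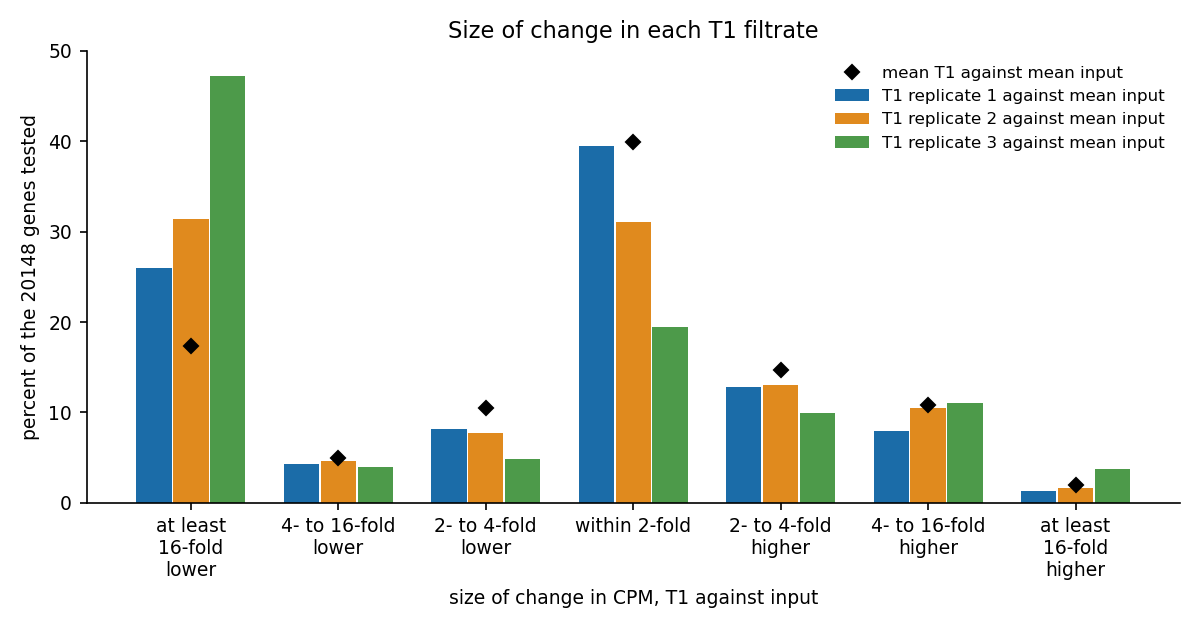
Percent of the 20148 genes tested (vertical axis) in each class of change in CPM (horizontal axis), with bars for each T1 library against the mean input and diamonds for the mean of the 3 T1 libraries. The class at least 16-fold lower held 25.9%, 31.4% and 47.2% of the genes in T1 replicate 1, 2 and 3 and 17.3% by the mean, while the class within 2-fold held 39.5%, 31.1% and 19.4%.

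Large falls were more frequent in each T1 library alone than by their mean, and large rises only in T1 replicate 3. In T1 replicate 1, 2 and 3, 30.3%, 36.1% and 51.1% of genes were at least 4-fold below the mean input, and 9.20%, 12.1% and 14.7% were at least 4-fold above it. When each input library was set against the other 2 in the same way, between 4.89% and 6.10% of genes were at least 4-fold lower and between 2.25% and 2.67% at least 4-fold higher. The T1 and input shares did not overlap in either direction. The libraries often disagreed on which genes were depleted. A fall of at least 4-fold occurred in none of the T1 libraries for 7740 genes, in 1 for 4828, in 2 for 3900 and in all 3 for 3680 (18.3%). A rise of at least 4-fold occurred in 1 library for 3292 genes, in 2 for 1137 and in all 3 for 564 (2.80%). For 2623 genes (13%) 1 T1 library was at least 4-fold below the input and another at least 4-fold above it.

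A complete lack of reads in the T1 libraries was confined to RNAs under 10 CPM in the input, while very low counts reached higher levels. A count of 0 in all 3 T1 libraries occurred for 1461 tested genes, but for 0 of the 11813 genes with at least 10 CPM in the input. Among those, 208 had no read in 1 T1 library and 12 had none in 2. The limit that a count of 0 allows, set at 3 reads, was between 0.0827 and 0.161 CPM in the T1 libraries and between 0.0319 and 0.0441 CPM in the input. It covers counting error only, because reads are not independent molecules. The same 3 reads were used for genes with at most 3 reads in each T1 library, where they are no strict limit unless the count was 0. At most 3 reads in each T1 library were found for 2.11% of the third of 5 equal groups by input level, 9.28 to 25.9 CPM. In the fourth group, up to 67.1 CPM, the share was 0.0248%. The T1 libraries also held fewer kinds of RNA: at an equal depth of 23509338 reads, 16706 ± 400 genes had a read at T1 and 21727 ± 269 in the input (SD, n = 3 each), with no overlap and an exact two-sided permutation p of 0.1, the smallest that 3 libraries against 3 allow.

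What happened to an RNA went with its level in the input. The tested genes were divided into 5 equal groups by mean input CPM. In the lowest group, up to 2.31 CPM, 58.6% of genes were at least 4-fold lower at T1, 25.3% were at least 4-fold higher and 6.45% lay within 2-fold. In the highest group, from 67.2 to 2712 CPM, 6.97% were at least 4-fold lower, 2.33% were at least 4-fold higher and 61.5% lay within 2-fold. The share at least 4-fold lower was 27.8%, 10.9% and 6.78% in the groups between. By these means rare RNAs scattered to both extremes and most abundant ones lay near their input level. In single T1 libraries 5.98%, 11.5% and 20.3% of the highest group were at least 4-fold lower, and 6.97% became 12.2% without T1 replicate 1. Counting error grows as levels fall, but its part in this scatter was not tested. In the lowest group 56.7% of genes had at most 3 reads in each T1 library, against 0% of the highest. The input level itself was part of the ratio, so the genes were also grouped by their level at T2. In the lowest group by T2 level 59.2% were at least 4-fold lower, and in the highest 3.82%. At least 4-fold higher were 20.4% and 6.0%, so in the highest group by T2 level large rises outnumbered large falls.

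**Figure D2:**
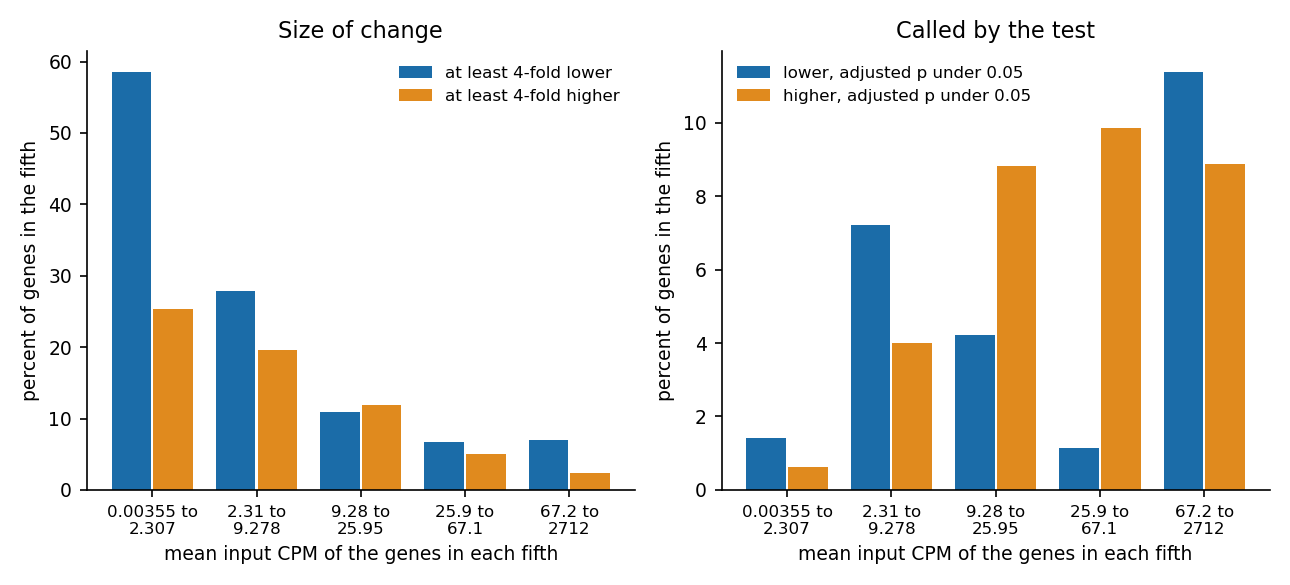
Percent of genes (vertical axes) in 5 equal groups by mean input CPM (horizontal axes) that were at least 4-fold lower or higher by the ratio of mean CPM (left) or called lower or higher at an adjusted p under 0.05 (right). Blue bars are lower at T1 and orange bars higher. Large changes fell from 58.6% and 25.3% in the lowest group to 6.97% and 2.33% in the highest. In this fit 1.41% of the 4030 genes of the lowest group were called lower and 0.620% higher. With only input and T1 in the fit, 2821 of them passed the filter and 44.0% of those were called lower.

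The calls had their own course along the input level. In the lowest group 0.620% of genes were called higher and 1.41% lower. From the second group to the fourth the share called higher was 4.0%, 8.83% and 9.85%, and the share called lower was 7.22%, 4.22% and 1.14%. In the highest group 8.88% were called higher and 11.4% lower, and its median log2 fold change was -0.39, against 0.09 in the fourth group and 0.38 in the third. These medians depended on the setting. With replicate number in the fit (a replicate block) they were -0.45, -0.09 and -0.11. Under limma's voom with a spread per condition they were -0.48, -0.26 and -1.13, the lowest being that of the third group. With 1 CPM added, the median of the third group was 0.21, 0.34 and -0.91 in T1 replicate 1, 2 and 3. In the main fit the highest group held the most calls in the downward direction, an order that depended on the setting. With only input and T1 in the fit, the filter kept 2821 of the 4030 genes of the lowest group and 3955 of the 4029 of the second. Of the genes kept, 44.0% in the lowest group, 19.1% in the second and 10.6% in the highest were called lower. With DESeq2 these shares were 15.9%, 21.9% and 18.9%, and without T1 replicate 1 they were 1.19%, 16.3% and 16.3%. The median SD of log2(CPM + 1) over the T1 libraries was 1.83 in the third group and 0.595 in the highest, against 0.303 and 0.154 over the input libraries. Without input replicate 1 the shares called higher and lower were 1.79% and 0.422% in the third group and 2.48% and 2.26% in the highest.

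RNAs were then named by a rule: in each of 4 equal groups by input level, the 3 largest rises and the 3 largest falls among genes that had a symbol, passed the test and had no overlap between the input and T1 libraries. The lack of overlap was part of the rule and is no finding, and over all tested genes it held for 3169 (15.7%) above and 5600 (27.8%) below the input. The rule gave 11 higher and 12 lower RNAs. They need not be the extremes of all RNAs, because only 1593 of the 20148 tested genes had a symbol. Of these 23, 10 stayed past the threshold in all 17 alternative settings, 8 of them higher and 2 lower, and 11 lost the call without each of the 3 input replicates in turn.

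Among the abundant RNAs that the rule could name, those of ppia.L, atp5f1b.S and pcna.L rose most. The ppia gene encodes cyclophilin A, a prolyl isomerase that helps proteins fold, and its L copy lies on chromosome 3L from 134178785 to 134186103 in the v10.1 assembly. Its RNA had 83.4, 89.9 and 65.5 CPM in input replicate 1, 2 and 3 and 307, 462 and 698 CPM in T1 replicate 1, 2 and 3. The 3 T1 libraries all lay more than 3-fold above the highest input library, and the fitted change was 6.14-fold (log2 fold change 2.62, SE 0.34, edgeR adjusted p = 0.0031). The atp5f1b.S RNA, for the catalytic beta subunit of the mitochondrial ATP synthase, had 114, 117 and 126 CPM in the input and 402, 695 and 800 CPM at T1. It rose 5.31-fold (log2 fold change 2.41, SE 0.31, edgeR adjusted p = 0.0031). The pcna.L RNA, for the sliding clamp that holds DNA polymerases on their template, had 253, 259.9 and 235 CPM in the input and 738, 1139 and 1899.8 CPM at T1. For atp5f1b.S and pcna.L too the lowest T1 library lay above the highest input library, and the highest value was that of T1 replicate 3, as for ppia.L. The change of pcna.L was 5.05-fold (log2 fold change 2.34, SE 0.34, edgeR adjusted p = 0.00414).

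At intermediate levels the RNAs that the rule named as higher included rps16.L and gar1.L. The first encodes a protein of the small ribosomal subunit, and gar1 encodes a core protein of the particles in which box H/ACA guide RNAs direct pseudouridylation. The gar1.L RNA had 28.9, 34.5 and 37.8 CPM in the input and 201, 261 and 259.9 CPM at T1 (log2 fold change 2.83, SE 0.44, edgeR adjusted p = 0.00484). In gar1.L the T1 libraries lay within 1.5-fold of each other. The rps16.L RNA had 37.7, 31.6 and 60.2 CPM in the input and 279, 249.6 and 908 CPM at T1 (log2 fold change 3.47, SE 0.57, edgeR adjusted p = 0.00578), T1 replicate 3 being the highest. Both RNAs and the 3 abundant ones above kept an adjusted p under 0.05 in every alternative setting, the highest over all of them being 0.0451, for rps16.L without input replicate 2.

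In the lower groups by input level the rule named rps14.L and rps3.S, for 2 more proteins of the small ribosomal subunit, tspo.L, for a protein of the outer mitochondrial membrane, polr1h.L, for a subunit of RNA polymerase I, and c15orf61.L. Their log2 fold changes lay between 3.92 and 6.06. The first pair kept the call in every alternative setting, with adjusted p-values of at most 0.0476 and 0.0372. The others did not: tspo.L, polr1h.L and c15orf61.L lost it without input replicate 1, 2 or 3, at adjusted p-values of up to 0.121, 0.134 and 0.105. The polr1h.L RNA had 13.7, 97.5 and 32.9 CPM in T1 replicate 1, 2 and 3, and its call was also lost without T1 replicate 2. The tspo.L RNA had 51.0, 20.9 and 182 CPM, and its call was also lost without T1 replicate 3. For polr1h.L and tspo.L the T1 library whose removal ended the call was the one with the highest value.

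The largest falls among the abundant RNAs that the rule could name were those of adpgkl.L, tspan33.L and rlf.S. The rlf gene encodes a zinc finger protein, and its S copy spans 80898769 to 80928186 of chromosome 2S. Its level was 530.5, 498 and 407 CPM in the input and 27.1, 104 and 37.3 CPM at T1. All T1 libraries were well below the input, by 8.55-fold in the fit (log2 fold change -3.10, SE 0.46, edgeR adjusted p = 0.00414), and this call held in every alternative setting. The adpgkl.L RNA, whose symbol marks it as like ADP-dependent glucokinase, had 102, 55.0 and 70.0 CPM in the input and 1.68, 0.0855 and 0.483 CPM at T1, which were 61, 3 and 9 reads. Its log2 fold change was -6.64 (SE 1.06, edgeR adjusted p = 0.00523). Of the alternatives only limma's voom with a spread per condition ended that call, at an adjusted p of 0.1. The tspan33.L RNA, for a tetraspanin of the cell membrane, had 120.4, 106 and 76.0 CPM in the input and 21.0, 1.17 and 1.13 CPM at T1. Here T1 replicate 1 stood far above the other 2 libraries, and the call (log2 fold change -3.69, SE 1.06, edgeR adjusted p = 0.0477) was lost in 11 of 17 alternative settings, without any one replicate of the input or T2 and without T1 replicate 2 or 3 among them, at adjusted p-values of up to 0.142.

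At intermediate levels the RNAs of sema6d.L, slc26a5.L and kctd14.S were nearly absent from the filtrate. Semaphorin 6D is a membrane-bound guidance cue, slc26a5 encodes prestin, the motor protein of hair cells of the mammalian ear, and kctd14 encodes a protein with a potassium channel tetramerisation domain. The kctd14.S RNA had 26.2, 20.5 and 20.2 CPM in the input and 4, 3 and 2 reads in T1 replicate 1, 2 and 3, and its call (log2 fold change -7.76, SE 1.24, edgeR adjusted p = 0.00525) held in every alternative setting. The sema6d.L RNA had 20.2, 24.4 and 13.3 CPM in the input and 2, 4 and 1 reads at T1. The slc26a5.L RNA had 21.0, 11.2 and 17.7 CPM in the input and 2 reads in each T1 library. Levels of this kind were near the limit of detection in all 3 filtrates, where folds are rough. Against 3 reads per library, slc26a5.L was 152-fold lower, which is no strict bound for a gene with 2 reads. Its call was lost without input replicate 1, 2 or 3 and under limma's voom, at adjusted p-values of up to 0.0775. The call for sema6d.L was lost under limma's voom alone, at 0.113.

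The rarer RNAs that the rule named as lower had 0 reads in all T1 libraries, except elf2.L, for an ETS transcription factor, with 1 read in T1 replicate 1. The frmpd4.S RNA, for a scaffold protein with a PDZ domain, had 9.45, 7.14 and 3.44 CPM in the input and was at least 60.8-fold lower at T1 against 3 reads per library (edgeR adjusted p = 0.0248). The ndnfl1.1.L RNA had 3.66, 4.60 and 6.34 CPM in the input and was at least 44.4-fold lower (edgeR adjusted p = 0.047). The RNAs of laptm5.S, eva1b.S and neurl3.L had under 3 CPM in every input library and were at least 17.1-fold, 15-fold and 5.94-fold lower, with edgeR adjusted p-values between 0.0432 and 0.0468. None of these calls was stable. Each of the 6 was lost without input replicate 1, 2 or 3, and neurl3.L in 14 of its 16 alternative settings.

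**Figure D3:**
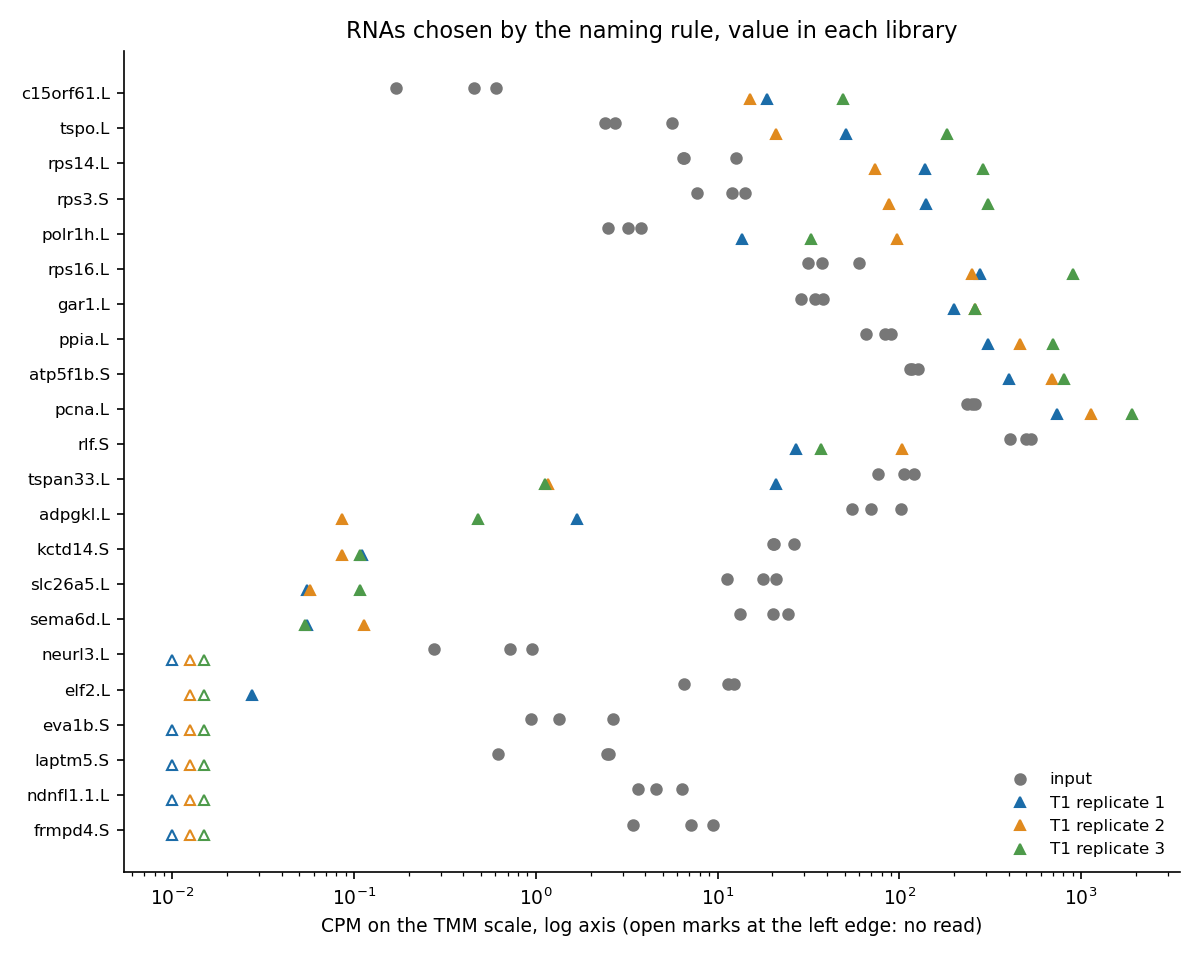
CPM on the TMM scale (horizontal log axis) of the named RNAs (vertical axis, 1 of the 23 not shown, ordered by fitted log2 fold change) in each library. Grey circles are the 3 input libraries, coloured triangles the 3 T1 libraries, and open triangles at the left edge stand for no read. The groups do not overlap by the rule of choice. T1 replicate 3 (green) gave the highest value for most RNAs that rose, such as 1899.8 CPM for pcna.L, and T1 replicate 1 (blue) lay at 21.0 CPM for tspan33.L, where the other 2 were near 1 CPM.

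Among genes outside the part of the table of symbols in hand, the 2 largest rises and the 2 largest falls that passed the same test with no overlap are given by identifier. XBXL10_1g42036 had 0.0147, 0.0540 and 0.117 CPM in the input and 10.6, 9.54 and 26.9 CPM at T1, and XBXL10_1g26152 had 1.18, 0.756 and 1.49 CPM in the input and 13.1, 20.6 and 207 CPM at T1. XBXL10_1g26578 and XBXL10_1g28167 had at least 5.10 CPM in every input library and 0 reads at T1, which puts them at least 69.0-fold and 66.4-fold lower. All 4 lost the call without each input replicate.

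Changes at T1 were ordered by gene span, the length of a gene on its chromosome. Span includes introns and stands for neither the length of the spliced RNA nor that of the protein, and it was known for 1874 of the 1890 tested messenger RNAs with an entry in the study's table of symbols. In 4 equal groups from the shortest spans (up to 12483 bases) to the longest (from 50013 bases), the median log2 fold change was 0.61, 0.13, -0.36 and -0.69. The share called higher was 12.6%, 7.69%, 2.78% and 1.28%, against 6.44% of all tested genes, and the share called lower was 3.84%, 6.41%, 5.98% and 7.89%, against 5.08%. RNAs of compact genes were thus more often called higher in the filtrate. The order held in each T1 library. With 1 CPM added, the median log2 ratio to the input from the shortest to the longest group was 0.16, -0.08, -0.30 and -0.58 in T1 replicate 1, it was 0.40, -0.05, -0.65 and -1.02 in T1 replicate 2, and it was -0.30, -0.70, -0.97 and -1.55 in T1 replicate 3.

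The gap between the shortest and the longest group was 0.75, 1.41 and 1.25 in the 3 T1 libraries, against -0.06, -0.03 and 0.12 when each input library was set against the other 2. The groups of libraries did not overlap, with 1.13 ± 0.35 at T1 and 0.01 ± 0.10 in the input (SD, n = 3 each, exact two-sided permutation p = 0.1, the smallest possible). Input level did not order the genes in this way. Across the 1874 genes span had a Spearman correlation of 0.04 with the mean input CPM and of -0.26 with the log2 fold change, both given as descriptions. In the part of the genes with the higher input levels the 4 medians were 0.28, -0.15, -0.28 and -0.61, and in the part with the lower levels they were 1.05, 0.43, -0.56 and -0.66. With the higher input levels 17% of the shortest group and 2.99% of the longest were called higher, while 3.83% and 10.7% were called lower. Without input replicate 1, 2 or 3 the share called higher in the shortest group was 3.20%, 3.20% and 4.48% and in the longest 0%, and the share called lower in the longest group was 1.28%, 1.5% and 2.14%, against 0.213% in the shortest each time. The latter pair of shares was 1.49% and 0.853% under limma's voom, and 19.0% and 7.25% without T1 replicate 1. The number of exons and the length of the mature RNA were not analysed here, and their part in this order was not tested.

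**Figure D4:**
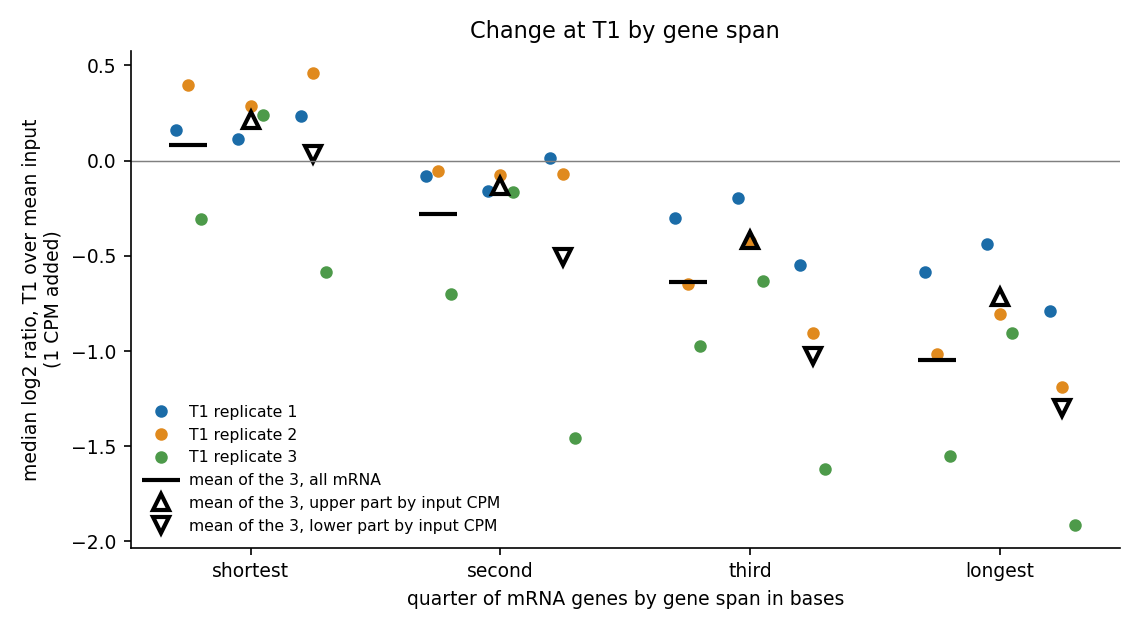
Median log2 ratio of T1 over the mean input with 1 CPM added (vertical axis) for messenger RNAs in 4 equal groups by gene span (horizontal axis). In each group the coloured points are the 3 T1 libraries and the black marks their mean, from left to right for all 1874 genes, for those with the higher input levels and for those with the lower input levels. The mean of the T1 medians over all genes went from 0.08 in the shortest group through -0.28 and -0.64 to -1.05 in the longest.

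Kinds of RNA could be told apart for the 1988 tested genes with an entry in the part of the study's table that was used, 9.87% of those tested. Messenger RNAs made up 1890 of them, and 116 (6.14%) were called higher and 114 (6.03%) lower, close to the shares over all genes. Small nucleolar RNAs (snoRNAs) guide chemical changes on ribosomal RNA, and most are cut from the introns of other genes. Of the 42 that were tested, 6 (14.3%) rose, against 6.44% of all genes, and 0 fell, against 5.08%. All 3 T1 libraries lay above the input for 20 of them and below it for 0, against 15.7% and 27.8% of all genes, and their median log2 fold change was 3.56, against -0.09 over all genes. The most abundant snoRNA had 111, 118 and 114 CPM in the input and 732, 412 and 2252 CPM at T1 (log2 fold change 3.31, SE 0.78, edgeR adjusted p = 0.0243). Its T1 libraries were far apart, with T1 replicate 3 the highest and T1 replicate 2 the lowest, and so were those of the group: the median log2 ratio of the snoRNAs, with 1 CPM added, was 1.94, 1.14 and 3.36 in T1 replicate 1, 2 and 3. The count of 6 was 0 without input replicate 1, 2 or 3 and 11 without T1 replicate 1 or 2. At an unadjusted p under 0.05 edgeR's test had 18 higher and 1 lower, and DESeq2's Wald test called 21 higher and 2 lower. Of all 20148 tested genes 6525 had an unadjusted p under 0.05 in either direction, and DESeq2 called 14.6% higher and 13.4% lower. These shares are the background for such counts in the lists below.

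The other non-coding kinds were few. The 3 tested genes annotated as ribosomal RNA had under 3 CPM in each input library and had log2 fold changes between 5.44 and 6.48, of which 1 passed the test, and 0 without input replicate 1 or 3. Their reads are those left after the depletion of ribosomal RNA, and how evenly it worked across libraries was not tested. These values thus do not measure ribosomal RNA in the filtrate. The single guide RNA had 0.383, 0.405 and 0.255 CPM in the input and 7.78, 24.2 and 51.9 CPM at T1 (log2 fold change 6.32, SE 1.53, edgeR adjusted p = 0.0268), a call lost without input replicate 1, 2 or 3. Of the 52 long non-coding RNAs, 2 (3.85%) were called higher and 2 lower, below the shares over all genes, each count becoming 0 without any one input replicate. Their median was not settled in sign: the median fitted log2 fold change was 1.00, but -4.46 without T1 replicate 2 and -3.68 without T1 replicate 1, and the medians with 1 CPM added were -0.55, -0.55 and -0.73 in the 3 T1 libraries. For 19 of them each T1 library held at most 3 reads. Reads of short repeated RNAs can match several places in this genome, and the libraries of T1 had more such reads than those of the input (5.66% ± 1.42 against 1.79% ± 0.0867, SD, n = 3 each, exact two-sided permutation p = 0.1, the smallest possible).

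Messenger RNAs were also grouped by function, in 17 lists taken from symbols. Of 16 cytosolic ribosomal protein genes 9 (56.2%) rose, against 6.44% of all genes, and 0 fell, with a median log2 fold change of 2.62. Besides those named above, rpl4.L had 60.3, 49.7 and 65.6 CPM in the input and 233, 240.1 and 288 CPM at T1 (log2 fold change 2.11, SE 0.25, edgeR adjusted p = 0.003). Its T1 libraries differed little from each other, so that its SE was the smallest among the 9. The count was 5 without input replicate 1, 2 or 3. Reads that match near-identical gene copies, such as an L and an S copy, equally well may have been left out of the counts. Of 10 subunits of the respiratory chain and ATP synthase, which couple electron transfer in mitochondria to the making of ATP, 7 (70%) rose, against the same 6.44%, and 0 fell, with a median log2 fold change of 2.93. The cox5a.L RNA, for a subunit of cytochrome c oxidase, had 12.6, 8.42 and 16.6 CPM in the input and 66.1, 168 and 257 CPM at T1 (log2 fold change 3.71, SE 0.65, edgeR adjusted p = 0.00741), and that of ndufa9.L, for a subunit of complex I, had 11.4, 12.6 and 19.2 CPM and 97.6, 135 and 241 CPM (log2 fold change 3.45, SE 0.55, edgeR adjusted p = 0.00516). The count was 7 in every alternative setting except without input replicate 1, 2 and 3, where it was 2, 2 and 4. At an unadjusted p under 0.05 edgeR's test had 0 lower genes in the ribosomal and in the respiratory list, as did DESeq2.

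Of 15 enzymes of the mitochondrial matrix, 5 (33.3%) rose, against 6.44% of all genes, and 0 fell, with a median log2 fold change of 1.35. The acat1.S RNA, for an acetyl-CoA acetyltransferase, had the largest rise, from 14.1, 17.9 and 29.7 CPM in the input to 94.4, 117 and 163 CPM at T1 (log2 fold change 2.60, SE 0.56, edgeR adjusted p = 0.0175). Others were cs.S, for citrate synthase, with 28.4, 40.2 and 31.4 CPM in the input and 93.3, 155 and 206 CPM at T1 (log2 fold change 2.18, SE 0.39, edgeR adjusted p = 0.00832), and mdh2.S, for mitochondrial malate dehydrogenase (log2 fold change 2.48, SE 0.47, edgeR adjusted p = 0.00988). The count was 0, 1 and 1 without input replicate 1, 2 and 3. Of 10 mitochondrial ribosomal proteins 0 were called in either direction, and their median was 0.59, 1.10 and -0.73 in T1 replicate 1, 2 and 3 with 1 CPM added, against a median fitted log2 fold change of 0.99. Thus T1 replicate 3, which gave the highest medians for cytosolic ribosomal proteins and the respiratory chain, gave the lowest here. At an unadjusted p under 0.05 edgeR's test had 1 higher and 1 lower, and DESeq2 called 3 of the 10 higher and 1 lower. The slc25a3.L RNA, for the mitochondrial phosphate carrier, had 290.2, 278 and 396 CPM in the input and 1008, 1547 and 2116 CPM at T1 (log2 fold change 2.28, SE 0.30, edgeR adjusted p = 0.0031). Of 34 solute carriers it was 1 of 2 called higher, the other being slc10a7.L (log2 fold change 2.80, SE 0.70, edgeR adjusted p = 0.0304), and 2 were called lower, slc26a5.L and slc25a37.L, counts that were 1 and 0 without any one input replicate and 5 and 2 without T1 replicate 3.

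Of 21 translation factors and tRNA synthetases 3 (14.3%) rose, against 6.44% of all genes, and 0 fell, with a median log2 fold change of 0.87. The largest rise among the 3 called was that of eif3i.S, for a subunit of initiation factor eIF3, with 94.7, 93.9 and 103 CPM in the input and 147, 320.1 and 369 CPM at T1 (log2 fold change 1.52, SE 0.35, edgeR adjusted p = 0.0210). The highest log2 fold change in the list, 2.68, was not called. Another was eif4h.S, for a factor that aids the unwinding of messenger RNA at initiation, with 495, 512 and 450.2 CPM in the input and 1017, 975 and 1101 CPM at T1 (log2 fold change 1.09, SE 0.19, edgeR adjusted p = 0.00667), a rise of modest size that was even across the T1 libraries. Of 33 splicing and nuclear RNA-binding proteins 2 (6.06%) rose, hnrnpr.S and thoc3.L (log2 fold changes 1.12 and 1.88), and 0 fell. Of 35 genes of the ubiquitin system and proteasome 2 (5.71%) rose, usp39.L and paaf1.S (log2 fold changes 1.78 and 2.62), and 0 fell, while the median of the list was -0.34. Both shares were near the 6.44% over all genes. The usp39 protein is related to deubiquitinases but acts in the spliceosome. At an unadjusted p under 0.05 edgeR's test had 1, 0 and 3 lower genes in the translation, splicing and ubiquitin lists, and DESeq2 called 0, 0 and 3. The counts of these 3 lists were 0 or 1 without any one input replicate. Without T1 replicate 1 and 3 the translation list had 5 each, and the ubiquitin list had 3 higher and 3 lower without T1 replicate 1 and 4 higher and 2 lower without T1 replicate 3. Over all tested genes 9.40% were called higher and 10.9% lower without T1 replicate 1, and 7.22% and 6.98% without T1 replicate 3.

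Among 30 factors of RNA granules and mRNA decay, 3 (10%) fell, against 5.08% of all genes, and 1 (3.33%) rose, against 6.44%. Their median input level was 58.2 CPM. In the fourth of the 5 groups by input level, 25.9 to 67.1 CPM, 1.14% were called lower and 9.85% higher. The highest group had 11.4% and 8.88%. In edgeR's test 5 were lower and 4 higher at an unadjusted p under 0.05, DESeq2 called 5 lower and 3 higher, and median-of-ratios factors gave 1 in each direction. Of all 20148 tested genes 6525 had such an unadjusted p in either direction, and DESeq2 called 13.4% lower and 14.6% higher. The cnot8.L RNA, for a deadenylase of the CCR4-NOT complex that shortens poly(A) tails, had 115, 88.1 and 95.0 CPM in the input and 14.6, 26.5 and 16.8 CPM at T1 (log2 fold change -2.36, SE 0.43, edgeR adjusted p = 0.00855). The cnot6l.L RNA, for another deadenylase of that complex, was far more abundant, with 1672, 1295 and 1453 CPM in the input and 935, 659.7 and 858 CPM at T1, and its log2 fold change was only -0.85 (SE 0.21, edgeR adjusted p = 0.029). The third was g3bp2.L, for a scaffold of stress granules (log2 fold change -1.06, SE 0.27, edgeR adjusted p = 0.0328), while g3bp1.L, for its close relative, had a log2 fold change of 0.22 (edgeR adjusted p = 0.835). The difference between the pair was not tested. The RNA that rose, snd1.L, encodes a nuclease-like protein of granules (log2 fold change 1.52, SE 0.36, edgeR adjusted p = 0.0248). Without any one input replicate, and under limma's voom, 0 genes of the list were called, and 5 were lower without T1 replicate 2 or 3. Over all tested genes 6.45% and 6.98% were called lower without T1 replicate 2 and 3.

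Maternal RNAs of cell cycle genes drive the rapid divisions of the early embryo. Of 37 such genes, 6 (16.2%) fell, against 5.08% of all genes, and 1 (2.7%) rose, against 6.44%, with a median log2 fold change of -0.47. Their median input level was 139 CPM, within the highest of the 5 groups by input level, where 11.4% were called lower and 8.88% higher. The split was nearly even by other measures: at an unadjusted p under 0.05 edgeR's test had 7 lower and 5 higher, and DESeq2 called 6 lower and 5 higher. Of all 20148 tested genes 6525 had such an unadjusted p in either direction, and DESeq2 called 13.4% lower and 14.6% higher. The cenpe.L RNA, for a long kinesin that carries chromosomes to the spindle equator, had 289, 321 and 307 CPM in the input and 55.0, 68.1 and 100.2 CPM at T1 (log2 fold change -2.04, SE 0.44, edgeR adjusted p = 0.0174). The clspn.S RNA, for the checkpoint adaptor claspin, had 464, 481 and 435 CPM in the input and 207, 179 and 218 CPM at T1 (log2 fold change -1.19, SE 0.21, edgeR adjusted p = 0.00742). The other RNAs that fell were those of cenpc.L, of the centromere, espl1.S, for separase, hmmr.L and racgap1.S, for spindle and midzone proteins, with log2 fold changes between -1.91 and -1.06. The exception was ccna2.L, for cyclin A2, with 388, 413 and 412 CPM in the input and 850, 917 and 910 CPM at T1 (log2 fold change 1.14, SE 0.23, edgeR adjusted p = 0.012), while ccnb2.L, for a B cyclin, had 354 ± 73.6 CPM in the input and 353 ± 188 CPM at T1 (SD, n = 3 each, edgeR adjusted p = 0.998). The T1 libraries of espl1.S were far apart, with 206, 158 and 40.8 CPM. The count of 6 was 0, 0 and 1 without input replicate 1, 2 and 3, and 3 under limma's voom, and the count of 1 higher was 4 without T1 replicate 1. In that last setting 9.40% of all tested genes were called higher.

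Of 50 transcription factors 5 (10%) fell, against 5.08% of all genes, and 0 rose. Of 52 tested receptors and ligands of signalling pathways 2 (3.85%) fell, a share below that of all genes, and 0 rose. Their median log2 fold changes were -0.68 and -0.80, against -0.09 over all genes. The median input levels of these lists were 9.21 and 9.07 CPM, within the second of the 5 groups by input level. In that group 7.22% were called lower and 4.0% higher. The ikzf4.S RNA, for a zinc finger factor of the Ikaros family, had 440.4, 378 and 376 CPM in the input and 124, 56.5 and 55.8 CPM at T1 (log2 fold change -2.33, SE 0.35, edgeR adjusted p = 0.00428). The tcf7l1.L RNA, for a repressor at targets of Wnt signalling, had 131, 142 and 146 CPM in the input and 31.6, 37.5 and 16.8 CPM at T1 (log2 fold change -2.29, SE 0.40, edgeR adjusted p = 0.00695). Both were abundant and lay 2-fold or more below the input in every T1 library. The nr2c1.L RNA, for an orphan nuclear receptor, had a log2 fold change of -1.23 (SE 0.27, edgeR adjusted p = 0.0197), and tcf12.L had 2 reads or fewer in each T1 library. Against 3 reads per library tcf12.L lay 76.0-fold below the input, which is no strict bound. The gdf9.L RNA, for a growth factor secreted by oocytes, had 416, 392 and 288 CPM in the input and 125, 175 and 84.3 CPM at T1 (log2 fold change -1.51, SE 0.36, edgeR adjusted p = 0.0248). The count of 5 transcription factors was 2 without any one input replicate and under limma's voom. That of 2 receptors and ligands was 1 without any one input replicate and 7, 8 and 3 without T1 replicate 1, 2 and 3. Over all tested genes 10.9%, 6.45% and 6.98% were called lower without T1 replicate 1, 2 and 3. At an unadjusted p under 0.05 edgeR's test had 2 higher and 16 lower transcription factors and 0 higher and 14 lower receptors and ligands, and DESeq2 called 3 and 9 and 0 and 10. Of all 20148 tested genes 6525 had such an unadjusted p in either direction, and DESeq2 called 14.6% higher and 13.4% lower.

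The lowest median of all lists of regulators, -1.10, was that of 29 zinc finger genes of the znf, zbtb and zscan families, of which 6 (20.7%) fell, against 5.08% of all genes, and 0 rose. The znf710.L RNA had 191, 190.2 and 74.8 CPM in the input and 53.1, 51.2 and 30.7 CPM at T1 (log2 fold change -1.76, SE 0.42, edgeR adjusted p = 0.0246), with input replicate 3 nearest to the T1 libraries. The znf827.L RNA had 1 read or none in each T1 library. Against 3 reads per library it was 43.7-fold below an input of 4.33 to 5.31 CPM (edgeR adjusted p = 0.0291), which is no strict bound. In edgeR's test 0 were higher and 11 lower at an unadjusted p under 0.05, and DESeq2 called 1 and 10. Of all 20148 tested genes 6525 had such an unadjusted p in either direction, and DESeq2 called 14.6% higher and 13.4% lower. The count of 6 was 0, 0 and 1 without input replicate 1, 2 and 3, was 3 and 4 without T2 replicate 1 and 2, and was 1 under limma's voom. Zinc finger genes are a large family with similar sequences, so the assignment of their reads is less certain.

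Of 56 genes of membrane traffic 3 (5.36%) rose, golt1b.L, lman2.L and vamp8.L, and 2 (3.57%) fell, vps13c.L among them, shares near the 6.44% and 5.08% over all genes. The golt1b.L RNA, for a protein of vesicle traffic at the Golgi, had 13.8, 12.5 and 16.1 CPM in the input and 30.2, 106 and 431 CPM at T1, which differed widely (log2 fold change 3.74, SE 0.85, edgeR adjusted p = 0.0211). The vamp8.L RNA, for a membrane fusion protein of late endosomes, had 16.1, 21.1 and 24.4 CPM in the input and 61.3, 151 and 121 CPM at T1 (log2 fold change 2.44, SE 0.48, edgeR adjusted p = 0.0116). The vps13c.L RNA, for a very long lipid transfer protein, had 114, 119.8 and 99.7 CPM in the input and 42.3, 34.7 and 47.0 CPM at T1 (log2 fold change -1.43, SE 0.38, edgeR adjusted p = 0.0365). Of 25 genes of cilia and axonemes 2 (8%) fell, cfap43.L and lrriq1.L, against 5.08% of all genes, and 0 rose. The cfap43.L RNA, for a protein of the ciliary axoneme, had 3.74 to 9.74 CPM in the input and 2 reads or fewer in each T1 library. Against 3 reads per library it was 58.7-fold lower, which is no strict bound. The lrriq1.L RNA had 29.0, 51.2 and 45.4 CPM in the input and 0.524, 0.256 and 0.268 CPM at T1 (log2 fold change -6.89, SE 0.93, edgeR adjusted p = 0.00331). Without any one input replicate the counts of membrane traffic were 0 in both directions and that of cilia was 1, while without T1 replicate 1 they were 7 higher and 5 lower, and 5 lower. Without T1 replicate 1, 9.40% of all tested genes were called higher and 10.9% lower.

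Markers of the egg were present in all input libraries. Of 17 oocyte and germ line genes 3 (17.6%) rose, against 6.44% of all genes, and 1 (5.88%) fell, near the 5.08% of all genes. The npm2.L RNA, for nucleoplasmin, a histone chaperone stored in eggs, had 43.5, 30.2 and 55.5 CPM in the input and 186, 112 and 267 CPM at T1 (log2 fold change 2.13, SE 0.40, edgeR adjusted p = 0.0101), and that of zp4.L, for an egg coat protein, rose by a log2 fold change of 1.92 (SE 0.40, edgeR adjusted p = 0.0145). The gene that fell was gdf9.L. Of 14 markers of blood, vessel and connective tissue, listed for other cells that an extract could hold, 9 had at most 3 reads in each T1 library. Their median input level was 0.950 CPM, against 36.7 CPM for the egg markers, the highest apart from ikzf4.S being 5.06 CPM. The 2 called lower (14.3%, against 5.08% of all genes) were laptm5.S and ikzf4.S, and the latter stands in the list of transcription factors too. Without input replicate 1, 2 and 3, 0, 0 and 1 of the egg markers were called higher and 0 lower, and 1 blood or vessel marker was called lower.

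**Figure D5:**
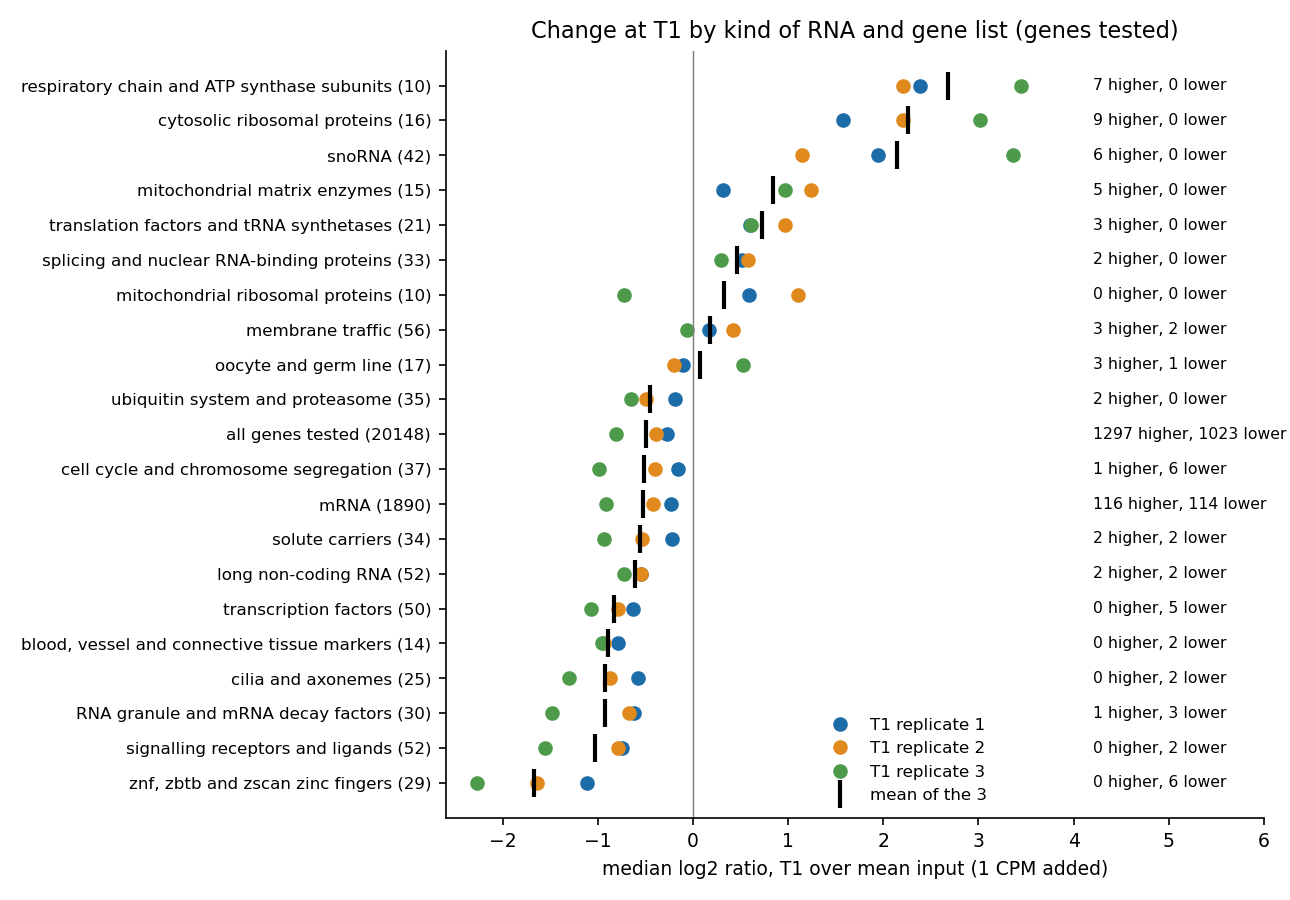
Median log2 ratio of T1 over the mean input with 1 CPM added (horizontal axis) for kinds of RNA and gene lists (vertical axis, number of genes tested in parentheses), with coloured points for the 3 T1 libraries, a black bar for their mean and, on the right, how many genes were called. Of the groups drawn, the respiratory chain, with 7 of 10 genes higher, had the highest mean and the zinc finger families, with 6 of 29 lower, the lowest, and the median over all genes was -0.28, -0.39 and -0.81 in the 3 T1 libraries.

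The filtrate and the extract differed in which RNAs took most reads. Of the 100 genes with most reads in each library, 69 were shared by all 3 input libraries and 52 by all 3 T1 libraries, but 11 by all 6. In 37 cases a gene was among them in every input and in 0 T1 libraries, and in 33 cases the reverse held. The 100 genes took 8.03% ± 0.178 of the reads in the input and 10.4% ± 1.96 at T1, where T1 replicate 3 reached 12.6%. The 1000 genes with most reads took 36.4% ± 0.634 and 38.4% ± 3.53, which overlapped (exact two-sided permutation p = 0.5). Reads that matched the genome but were counted on no annotated gene, antisense reads perhaps among them, made up 34.3% ± 2.07 of the input libraries and 21.7% ± 2.85 of those of T1. Unmapped reads made up 7.42% ± 0.253 and 16% ± 3.92 (SD, n = 3 each). The groups did not overlap in either measure, each with an exact two-sided permutation p of 0.1, the smallest possible. Unmapped reads were most frequent in T1 replicate 3, at 20.1%, the library with the fewest reads and the most large falls, and their part in the changes of single genes was not tested.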

How the data were processed

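Short-read RNA-seq of 3 input, 3 T1 and 3 T2 samples of egg extract was analysed. The authors trimmed reads with Trim Galore, aligned them to the *X. laevis* v10.1 genome with STAR and deposited whole-number counts per gene with no normalization. The submitters' notes also name DESeq2. Which strand setting the counts used is not given in the sources used here, so antisense partners cannot be told apart. A second deposited table, of normalized values, was not used. The 4 summary rows of the count table were kept out of all tests and library sizes; they held 41.2% to 46.1% of an input or T1 library's reads.

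Counts were analysed in R 4.3.3 with edgeR 4.0.16: filterByExpr (minimum count 10, minimum total 15), TMM factors, and the quasi-likelihood test of T1 against input fitted to all 9 libraries, with Benjamini-Hochberg adjustment over 20148 genes and a threshold of 0.05. SEs are approximate, each being the absolute log2 fold change over the root of its F statistic. Shares by size of change used ratios of mean CPM with no test. Alternatives were median-of-ratios factors, library size only, other filters, DESeq2 1.42.0, voom from limma 3.58.1, fewer libraries and a replicate block. The test was also run on simulated data, and the outcome is not reported here. Symbols and kinds came from the part of the study's source table in hand (1999 entries, held here only in part), and spans and coordinates from RefSeq's gene table of assembly v10.1, in which 1598 of 1598 symbols matched. No table of protein lengths was used here, so the planned groups by coding length were replaced by groups by gene span, chosen after the files were seen. The members, the lists and the rule for named genes (up to 3 rises and 3 falls in each of 4 groups by input level, and the largest called members of each list) were chosen with earlier results of these data known. Other list members given with values were chosen after those values were seen. The values of 1 named RNA are not reported here.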

Additional observations from a re-analysis of the deposited data

How the results depend on the processing

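The total of 2320 genes was 5630 with DESeq2's Wald test (2937 higher, 2693 lower), 1288 with limma's voom (161 lower) and 4013 with only input and T1 in the fit (2621 lower). Leaving out 1 library gave 417 to 4083 genes in all, 287 to 1895 higher and 127 to 2188 lower. With a replicate block it was 1499 (573 lower). Deviations of same-numbered input and T1 libraries from their group means correlated at 0.01, 0.21 and 0.07. T1 replicate 1 correlated best with input replicate 3, at 0.10, and T1 replicates 2 and 3 with the input of their own number. The study's methods give 3 independent biological samples for 9 RNA experiments, a design in which each sample would give 1 library per condition. Neither the labels nor these values settle whether same-numbered libraries came from the same extract, and the main fit did not pair them. Library size alone gave 1063 higher and 1220 lower and moved the median log2 fold change of all genes from -0.09 to -0.25. That median was -0.72 with the replicate block and -1.19 under limma's voom. The share of genes at least 4-fold lower, 22.2%, was 34.9% with no filter beyond 1 count, 15.6% with a mean of at least 1 CPM and 24.1% to 36.2% without 1 library. The cause was not tested. The share at least 4-fold higher, 12.8%, was 13.3% and 14.1% with those filters and 10.6% to 13.9% without 1 library. In the lowest of 5 groups by input level, 58.6% at least 4-fold lower became 76.8% with no filter, 33.7% with a mean of at least 1 CPM and 61.8% to 79.1% without 1 library, and 25.3% at least 4-fold higher became 20.2%, 36.8% and 17.1% to 27.0%, and 20.4% by T2 level. In the highest group 2.33% at least 4-fold higher became 6.0% by T2 level. The gap between the shortest and longest gene spans, 1.20 in the median log2 ratio of the mean of the T1 libraries, stayed between 0.87 and 1.47 under every setting run. Of 458 log2 fold changes of 27 named genes under alternatives, 0 changed sign and 104 lost the threshold. Of the medians of kinds and lists and the share of reads on the leading genes, 60 values moved by more than the SD over the T1 libraries. Groups by coding length and by input CPM per coding length were not run for want of protein lengths. At these depths an RNA under about 0.16 CPM in T1 replicate 3 cannot be told from an absent one.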
